A study of Mus musculus with 18 samples.

Results

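The BCL2 family of apoptosis regulators was read in regulatory T cells (Tregs) with and without the chromatin remodeler CHD8. The 10 member genes were chosen by name and role from the 35865 genes listed under a single name, with earlier results of these data known. All 10 were among the 15240 genes tested, which had a TPM of at least 1 in at least 2 of the 4 RNA libraries. TPM is a transcript level scaled for gene length and for library size. Tregs carrying YFP were sorted by FACS out of CD4+ spleen T cells from WT and Treg-specific Chd8-/- mice, littermates 5 to 7 weeks old and matched for sex, with 2 RNA libraries per genotype and, as the study states, a male and a female in each. Cre was a YFP/iCre fusion knocked into the X-linked Foxp3 locus and was carried by both genotypes, so deletion was directed to all Foxp3-expressing cells of the Chd8-/- mouse, and effects inside the sorted cell cannot be told apart from those of the altered host. The labels gave the Chd8-/- libraries the genotype CHD8Flox/FloxFoxp3YFP-Cre and the WT libraries CHD8flox/floxFoxp3YFP-Cre/+, which names a floxed Chd8 allele in WT mice as well. The study describes WT mice as Chd8+/+, and the names WT and Chd8-/- are used here. The labels also gave Poly IC injection as the treatment of every sample. Each library was treated as 1 mouse, and which replicate was male was not in the labels.

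BCL2 family proteins control whether the outer mitochondrial membrane is opened during apoptosis. Pro-survival members such as BCL2 and MCL1 hold the pore-forming effectors BAX and BAK in check, and BH3-only members such as BIM (Bcl2l11), PUMA (Bbc3) and NOXA (Pmaip1) bind the pro-survival proteins or the effectors and tip cells toward death. In Tregs, MCL1 is known to be needed for survival and BIM to limit cell number, and NOXA binds MCL1 and A1 (the Bcl2a1 genes) in preference to BCL2.

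Chd8 itself was listed at 14.9 and 11.4 TPM in Chd8-/- replicates 1 and 2 and at 24.7 and 27.6 TPM in WT replicates 1 and 2, a log2 fold change of -0.95 (SE 0.29, limma adjusted p = 0.455). This value covers the whole gene and does not separate the deleted exons. The 7 Treg markers (Foxp3, Il2ra, Ikzf2, Ctla4, Cd4, Cd3e and Tnfrsf18) summed to between 3342.2 and 4005.7 TPM in every library, and none was at 0. Chd8-/- replicate 2 stood apart in markers of other cells. Its 8 myeloid markers summed to 1487.2 TPM, of which Lyz2 gave 1360.3 TPM, against 33.2 TPM in Chd8-/- replicate 1, 151.2 TPM in WT replicate 1 and 121.7 TPM in WT replicate 2. Its 8 erythroid and platelet markers summed to 1989.7 TPM, against 9.0, 385.2 and 351.9 TPM in the same order. B cell markers summed to 139.6 TPM there and to 29.7 to 43.8 TPM elsewhere, and CD8 T and NK cell markers to 13.7 to 44.3 TPM over the 4 libraries. The markers at 0 included Pax5, Cd14, S100a9, Adgre1, Ncr1, Klrd1, Hbb-bs, Hbb-bt, Hba-a2 and Ppbp in Chd8-/- replicate 1, and Ncr1, Klrb1c, Pf4 and Ppbp in replicate 2. S100a8, Pf4 and Ppbp were at 0 in both WT libraries, with S100a9 and Ncr1 also at 0 in WT replicate 2. The median SD of log2(TPM + 1) between libraries was 0.368 for Chd8-/- and 0.228 for WT.

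No member passed an adjusted p of 0.05 by limma, and neither did any other gene tested (0% of 15240), the smallest adjusted p over all genes being 0.0807. Unadjusted p-values were under 0.05 for 2 members, Pmaip1 and Bcl2a1b, both higher in Chd8-/- cells, against 10.2% of all genes in either direction, 3.90% higher and 6.30% lower. The genotypes did not overlap for 5 members, against 42.6% of all genes. The Chd8-/- libraries were the higher pair for 3 members (Bcl2a1b, Pmaip1 and Bbc3), against 14.8% of all genes, but Bbc3 passed the filter only through the Chd8-/- libraries. They were the lower pair for 2 members (Bcl2l1 and Bak1), against 27.8% of all genes. In the other 5 members (Mcl1, Bcl2, Bax, Bcl2l11 and Bid) the genotypes overlapped. No member reached a log2 fold change of 1 in size, which 5.12% of genes reached upward and 11.6% downward. The median log2 fold change was -0.02 over the 10 members and -0.15 over all genes tested. After quantile normalization these were 0.05 and 0.00. With 2 libraries against 2, the smallest p that an exact permutation test can give is 0.333, so the values of single libraries are given first for each member. Log2 fold changes are Chd8-/- minus WT on the log2(TPM + 1) scale, which understates the change of low genes. In bulk libraries, fewer cells with a transcript and less of it per cell cannot be told apart.

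**Figure D1:**
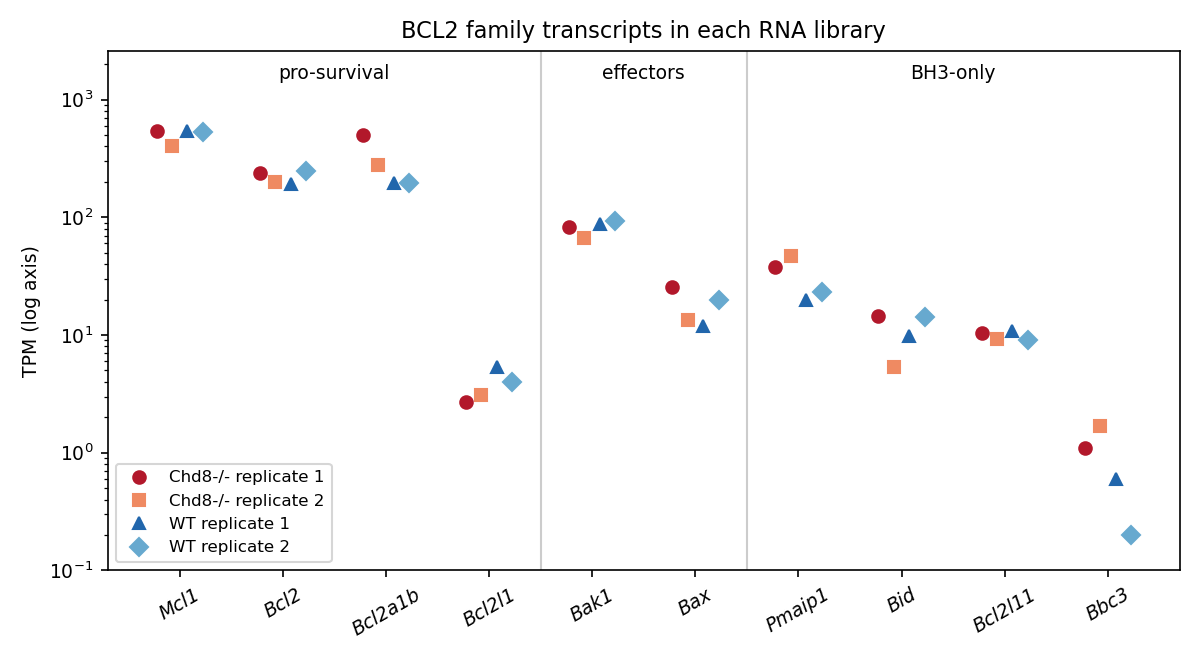
TPM (log axis) of the 10 members in each RNA library, grouped by role, with 1 symbol per library. Mcl1, Bcl2 and Bcl2a1b lay above all 6 pro-death members in every library, and both Chd8-/- symbols sit above both WT symbols for Bcl2a1b, Pmaip1 and Bbc3.

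The levels per length spanned a wide range, and their order was much alike in both genotypes. In WT Tregs the mean TPM was 534.5 for Mcl1, 220.2 for Bcl2, 196 for Bcl2a1b, 90.4 for Bak1, 21.5 for Pmaip1, 15.8 for Bax, 12.0 for Bid, 10.0 for Bcl2l11, 4.65 for Bcl2l1 and 0.40 for Bbc3. Bcl2 and Bcl2a1b changed order between the WT libraries, as did Bid and Bcl2l11. Pmaip1 lay above Bax and Bax above Bid in each WT library, although their values met or overlapped across libraries. In Chd8-/- Tregs, Bcl2a1b ranked next to Mcl1 with a mean of 387 TPM, above Bcl2 and below Mcl1 in both libraries. Bid and Bcl2l11 again changed order between the libraries there.

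**Figure D2:**
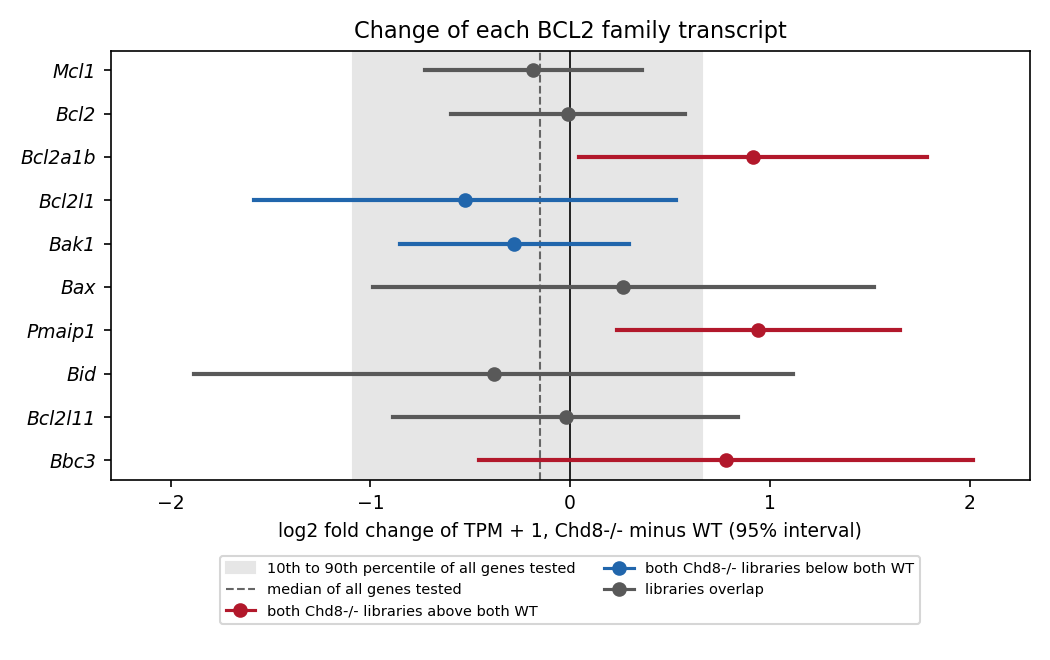
Log2 fold change of TPM + 1 (Chd8-/- minus WT, horizontal axis) of each member with its 95% interval from limma, coloured by whether the libraries of the 2 genotypes overlap. The grey band spans the 10th to 90th percentile of all genes tested (-1.09 to 0.66) and the dashed line is their median; only the intervals of Bcl2a1b and Pmaip1 lie above 0.

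Among the pro-survival members, Mcl1 and Bcl2 were abundant in all 4 libraries and overlapped between genotypes. Mcl1 (chr3:95656944-95663179, plus strand, mm10), which encodes the short-lived protein MCL1, was at 543.5 and 407.0 TPM in Chd8-/- replicates 1 and 2 and at 540.5 and 528.5 TPM in WT replicates 1 and 2. Chd8-/- replicate 1 was the highest of the 4 libraries and replicate 2 the lowest, so the genotypes overlapped. Its log2 fold change was -0.18 (SE 0.20, 95% interval -0.73 to 0.36, limma adjusted p = 0.782).

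Bcl2 (chr1:106538176-106714290, minus strand), the founding member of the family, was at 236.8 and 198.4 TPM in Chd8-/- cells and at 192.3 and 248.1 TPM in WT cells. The 2 WT libraries enclosed the 2 Chd8-/- libraries. Its log2 fold change was -0.01 (SE 0.22, 95% interval -0.60 to 0.58, limma adjusted p = 0.990), and only 1.63% of the genes tested had a smaller one.

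Bcl2l1 (chr2:152758732-152833803, minus strand), which encodes BCL-XL, was low throughout. It was at 2.7 and 3.1 TPM in Chd8-/- cells and at 5.3 and 4.0 TPM in WT cells. The WT libraries were the higher pair, and the gap between the nearest of them was under 1 TPM. On the log2 scale the difference was -0.53 (SE 0.39, 95% interval -1.58 to 0.53, limma adjusted p = 0.686).

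Bcl2a1b was the pro-survival member with the largest difference. It encodes a mouse copy of A1, a small pro-survival protein that is induced on lymphocyte activation and is also abundant in myeloid cells. Its level was 496.3 TPM in Chd8-/- replicate 1, 277.1 TPM in Chd8-/- replicate 2, 195.8 TPM in WT replicate 1 and 196.9 TPM in WT replicate 2. The WT libraries were nearly equal, both Chd8-/- libraries lay above them, and the Chd8-/- libraries were far from each other. The means were 387 ± 155 TPM and 196 ± 0.78 TPM (SD, n = 2 each), a ratio of 1.97. The log2 fold change was 0.91 (SE 0.32, 95% interval 0.04 to 1.78), with a limma p of 0.0432 before and 0.480 after adjustment over all genes. It was 1.33 without Chd8-/- replicate 2 and 0.49 without Chd8-/- replicate 1. Bcl2a1b was highest in the library with the lowest myeloid marker sum (33.2 TPM) and intermediate in the one with the highest (1487.2 TPM). The part of other cells in the difference was not tested.

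The mouse has several near-identical A1 genes on chromosome 9, so reads can be shared between them. Bcl2a1b lies at chr9:89199273-89207838 (plus strand), Bcl2a1a at chr9:88956920-88962416 (plus strand) and Bcl2a1d at chr9:88723288-88731850 (minus strand) of mm10. Their coding sequences are each 519 bases long. Bcl2a1b and Bcl2a1d differ at 6 coding bases (98.8% identity), Bcl2a1b and Bcl2a1a at 11 (97.9%), and Bcl2a1d and Bcl2a1a at 7 (98.7%). The first 240 coding bases of each, from the RefSeq annotation of the GRCm38.p6 (mm10) genome, are shown because most of the differences fall there. Capitals mark the 7 positions at which the 3 copies are not all alike, of 12 in the whole coding sequence.
Bcl2a1b: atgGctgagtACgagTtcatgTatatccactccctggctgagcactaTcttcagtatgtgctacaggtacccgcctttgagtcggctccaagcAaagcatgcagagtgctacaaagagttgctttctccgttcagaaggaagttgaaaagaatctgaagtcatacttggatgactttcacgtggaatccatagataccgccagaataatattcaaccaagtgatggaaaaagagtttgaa
Bcl2a1d: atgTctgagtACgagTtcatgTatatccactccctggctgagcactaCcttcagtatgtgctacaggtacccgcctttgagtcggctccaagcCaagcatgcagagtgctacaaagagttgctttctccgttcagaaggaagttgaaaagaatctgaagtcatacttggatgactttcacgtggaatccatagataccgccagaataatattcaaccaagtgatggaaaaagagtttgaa
Bcl2a1a: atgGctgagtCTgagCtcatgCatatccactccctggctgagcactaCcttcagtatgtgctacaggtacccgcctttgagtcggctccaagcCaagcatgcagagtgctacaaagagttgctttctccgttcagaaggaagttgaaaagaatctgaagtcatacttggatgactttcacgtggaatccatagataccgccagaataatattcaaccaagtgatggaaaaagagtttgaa

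Between the last of these positions and base 240, the 3 copies are identical, and a read placed there fits all of them. Over the spliced transcripts, a window of 50 bases occurred in no other copy for 42.2% of the windows of Bcl2a1b, 32.0% of those of Bcl2a1a and 16.5% of those of Bcl2a1d. At 100 bases these shares were 69.5%, 58.0% and 45.8%. The read length and how reads matching several genes were counted were not given in the sources used here. The split of reads between the copies is therefore uncertain. The level of the 3 together does not depend on that split, but it would miss the shared reads if these were left uncounted.

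The other copies showed the same order of libraries by genotype. Bcl2a1d was at 210.4 and 163.5 TPM in Chd8-/- cells and at 99.9 and 106.2 TPM in WT cells (log2 fold change 0.84, SE 0.21, limma adjusted p = 0.430). Bcl2a1a was at 45.9 and 57.3 TPM in Chd8-/- cells and at 29.4 and 20.5 TPM in WT cells (log2 fold change 1.03, SE 0.30, limma adjusted p = 0.446). Neither copy had overlapping genotypes, and Bcl2a1c was listed at 0 in all 4 libraries.

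Summed over the 3 copies, a reading added after the data were seen, the level was 752.6 and 497.9 TPM in Chd8-/- replicates 1 and 2 and 325.1 and 323.6 TPM in WT replicates 1 and 2. The ratio of the means was 1.93, and the log2 fold change was 0.91 (SE 0.25, 95% interval 0.24 to 1.58), with a limma p of 0.0185 before and 0.441 after adjustment. Bcl2a1b made up 65.9% and 55.7% of the sum in Chd8-/- cells and 60.2% and 60.8% in WT cells. Bcl2a1a made up 6.10% and 11.5% in Chd8-/- cells and 9.04% and 6.33% in WT cells. The shares of both copies overlapped between genotypes, while the sum was higher in both Chd8-/- libraries.

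**Figure D3:**
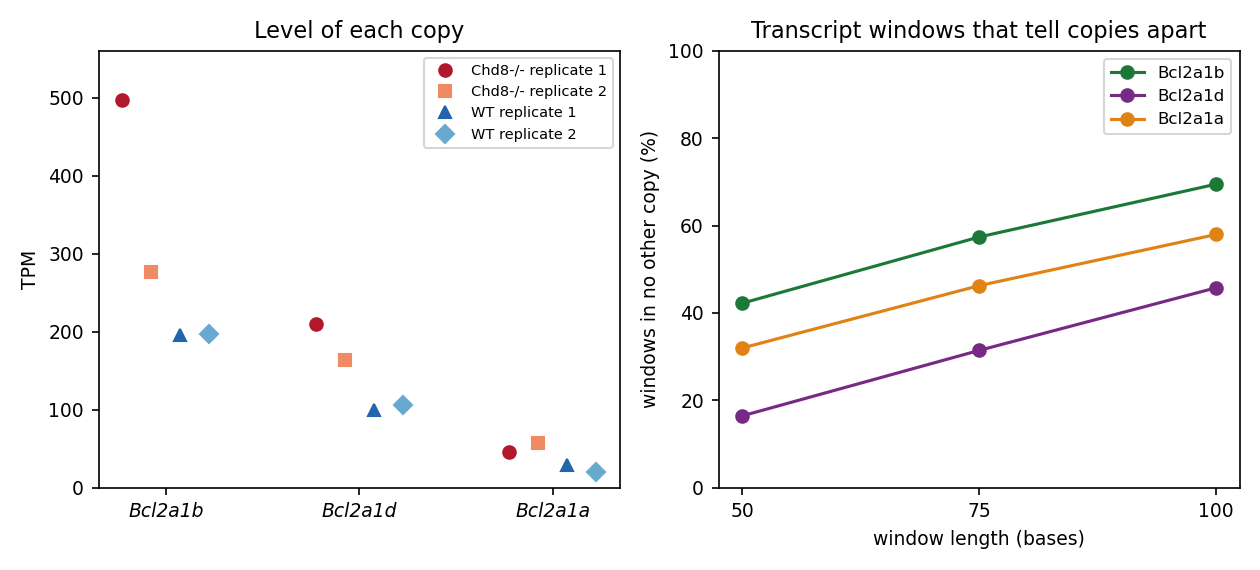
Left, TPM of the 3 expressed A1 copies in each library, with 1 symbol per library. Right, the share of all windows of 50, 75 and 100 bases of each transcript that occur in no other copy; both Chd8-/- symbols lie above both WT symbols for each copy, and no copy exceeds 69.5% unique windows.

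The 250 bases upstream of each copy are shown because the copies were higher together and sit in separate places on the chromosome. The windows are chr9:89199023-89199272 (plus strand) for Bcl2a1b, chr9:88731851-88732100 (minus strand) for Bcl2a1d and chr9:88956670-88956919 (plus strand) for Bcl2a1a, in GRCm38.p6 and written 5′ to 3′. Capitals mark GAGGAAGT, letters that hold the GGAA core of ETS-family sites and were picked after the sequences were seen.
Bcl2a1b: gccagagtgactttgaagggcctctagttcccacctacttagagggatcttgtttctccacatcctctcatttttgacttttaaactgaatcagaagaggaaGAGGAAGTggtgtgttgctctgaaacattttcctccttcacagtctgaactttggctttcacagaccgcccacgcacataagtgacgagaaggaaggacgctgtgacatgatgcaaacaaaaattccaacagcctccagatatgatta
Bcl2a1d: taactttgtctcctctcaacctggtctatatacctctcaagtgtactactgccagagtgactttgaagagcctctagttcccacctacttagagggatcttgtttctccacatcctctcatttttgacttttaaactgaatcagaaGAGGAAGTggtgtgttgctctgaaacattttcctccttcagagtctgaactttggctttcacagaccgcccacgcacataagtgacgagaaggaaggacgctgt
Bcl2a1a: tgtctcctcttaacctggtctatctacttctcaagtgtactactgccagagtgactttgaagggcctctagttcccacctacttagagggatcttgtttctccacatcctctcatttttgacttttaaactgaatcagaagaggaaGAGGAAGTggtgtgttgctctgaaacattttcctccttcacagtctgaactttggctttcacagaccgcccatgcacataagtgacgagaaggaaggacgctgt

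Each of the 3 copies and Bak1 held these letters on either strand between 250 bases before and 50 bases after the annotated start, as did 3.20% of the 32851 promoters of the RefSeq-derived set. RefSeq promoter sequences were matched for 9 of the 10 members, all but Pmaip1. A consensus of the NF-kappaB site was found in 1 of 3 annotated promoters of Bcl2l1 and in 1 of 3 of Bbc3. It was in no other matched member promoter and in none of the 3 A1 copies. The share over all promoters was 8.46%, and whether members exceed it was not tested. A full p53 consensus was in none of the matched member promoters, against 0.0731% of all (24 promoters). With so rare a match, its absence from these members was nearly fixed in advance and says nothing about p53 sites in them. The 3 A1 copies shared much of their upstream sequence, so a match in all of them is not 3 separate matches. A match describes the letters in the window and says nothing about binding in these cells.

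The pore-forming effectors, which oligomerise in the mitochondrial membrane, did not differ beyond their spread by the test. Bak1 (chr17:27019812-27028627, minus strand) encodes BAK and was the more abundant of the pair. It was at 82.8 and 66.6 TPM in Chd8-/- cells and at 88.0 and 92.8 TPM in WT cells. Both Chd8-/- libraries were below both WT libraries, by a small margin in replicate 1. Its log2 fold change was -0.28 (SE 0.21, 95% interval -0.85 to 0.29, limma adjusted p = 0.690).

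Bax (chr7:45461695-45466903, minus strand), whose protein moves from the cytosol to mitochondria in dying cells, was at 25.8 and 13.4 TPM in Chd8-/- cells and at 11.9 and 19.7 TPM in WT cells. Each genotype had 1 high and 1 low library. On the log2 scale the difference was 0.27 (SE 0.47, 95% interval -0.99 to 1.52, limma adjusted p = 0.866), and it changed sign when either Chd8-/- replicate 1 (-0.18) or WT replicate 1 (-0.08) was left out.

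Of the BH3-only members, Pmaip1 and Bbc3 were higher in both Chd8-/- libraries and Bcl2l11 and Bid overlapped. Pmaip1, which encodes NOXA, was at 37.6 TPM in Chd8-/- replicate 1, 47.1 TPM in Chd8-/- replicate 2, 19.7 TPM in WT replicate 1 and 23.3 TPM in WT replicate 2. The lowest Chd8-/- library was well above the highest WT library. The means were 42.4 ± 6.72 TPM and 21.5 ± 2.55 TPM (SD, n = 2 each), a ratio of 1.97. The log2 fold change was 0.94 (SE 0.26, 95% interval 0.23 to 1.65), with a limma p of 0.0203 before and 0.441 after adjustment. Left-out libraries moved it between 0.78 and 1.10, with Chd8-/- replicate 2, rich in myeloid and erythroid markers, absent at the lower value. Its change was larger in size than that of 81.5% of the genes tested.

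Bbc3 (chr7:16308398-16318334, plus strand), which encodes PUMA, a classical p53 target, was at the limit of the table. It was at 1.1 and 1.7 TPM in Chd8-/- cells and at 0.6 and 0.2 TPM in WT cells. Both Chd8-/- libraries were higher, but Bbc3 passed the filter only through those libraries, and deposited values came in steps of 0.1 TPM. The log2 fold change of 0.78 (SE 0.46, 95% interval -0.45 to 2.02, limma adjusted p = 0.621) is therefore a description only.

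Bcl2l11 (chr2:128126038-128162547, plus strand), which encodes BIM, was at 10.3 and 9.3 TPM in Chd8-/- cells and at 10.9 and 9.1 TPM in WT cells. The WT libraries enclosed the Chd8-/- libraries, and the log2 fold change was -0.02 (SE 0.32, 95% interval -0.89 to 0.84, limma adjusted p = 0.985). In the annotation, 215 of its exonic bases (1.92%) are shared with Acoxl on the same strand, the only exonic overlap among the 10 members.

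Bid (chr6:120893119-120917062, minus strand) encodes the BH3-only protein that caspase-8 cleaves to link death receptors to mitochondria. It was at 14.4 and 5.3 TPM in Chd8-/- cells and at 9.9 and 14.1 TPM in WT cells. The Chd8-/- libraries were the highest and the lowest of the 4. The log2 fold change of -0.38 (SE 0.56, 95% interval -1.88 to 1.12, limma adjusted p = 0.837) was set by Chd8-/- replicate 2 and was 0.26 without it.

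The members were then summed by role in each library, as a description with no test. Of the A1 copies, only the member Bcl2a1b was counted. Bcl2a1d and Bcl2a1a were left out, and both would add more in each Chd8-/- library than in either WT library. With both added, the pro-survival sum would be higher in both Chd8-/- libraries than in either WT library. The ratio of pro-death to pro-survival TPM would be lower in both. The nearest libraries would be close in each case, so the overlaps of these 2 readings below hold only with Bcl2a1b as the sole A1 copy. The pro-survival sum was 1279.3 and 885.6 TPM in Chd8-/- cells and 933.9 and 977.5 TPM in WT cells, so the Chd8-/- libraries lay on both sides of WT. The pro-death sum was 172.0 and 143.4 TPM against 141.0 and 159.2 TPM and overlapped too. Within it, the BH3-only sum was 63.4 TPM in each Chd8-/- library and 41.1 and 46.7 TPM in WT, without overlap. Pmaip1 carried this difference, and the other 3 BH3-only members summed to 25.8 and 16.3 TPM against 21.4 and 23.4 TPM, with overlap. The effector sum was 108.6 and 80.0 TPM against 99.9 and 112.5 TPM, with overlap.

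The ratio of pro-death to pro-survival TPM was 0.134 and 0.162 in Chd8-/- cells and 0.151 and 0.163 in WT cells. With Bcl2a1b as the only A1 copy counted, it overlapped. The log2 difference between genotypes was -0.09, and 0.046 without Chd8-/- replicate 1. Leaving Bcl2a1b out of the sum gave 0.220 and 0.236 in Chd8-/- cells and 0.191 and 0.204 in WT cells, so both Chd8-/- libraries then lay above WT and the log2 difference was 0.21. With Bcl2a1b kept, the difference of mean log2(TPM + 1), pro-death minus pro-survival, was -2.80 and -2.79 in Chd8-/- cells and -3.03 and -2.90 in WT cells, again higher in both Chd8-/- libraries. This mean weighs each member alike, so it leans on Bbc3, which was near the floor and passed the filter only through Chd8-/- libraries. Without Bbc3 it would overlap between genotypes. The balance had no direction that held across these readings, none of which counted Bcl2a1d or Bcl2a1a.

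Ratios of single members were also taken. Pmaip1 relative to Mcl1 was 0.0692 and 0.116 in Chd8-/- cells and 0.0364 and 0.0441 in WT cells. Relative to Mcl1 and Bcl2a1b together, it was 0.0362 and 0.0688 against 0.0268 and 0.0321, the nearest libraries being close. Bcl2a1b relative to Mcl1 was 0.913 and 0.681 against 0.362 and 0.373. None of these ratios overlapped between genotypes, whereas Bcl2l11 relative to Bcl2, at 0.0435 and 0.0469 against 0.0567 and 0.0367, did.

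The make-up of each side differed in the same genes. Bcl2a1b was 38.8% and 31.3% of the pro-survival sum in Chd8-/- cells and 21.0% and 20.1% in WT cells, while Mcl1 was 42.5% and 46.0% against 57.9% and 54.1%. On the pro-death side Pmaip1 was 21.9% and 32.8% in Chd8-/- cells and 14.0% and 14.6% in WT cells, while Bak1 was 48.1% and 46.4% against 62.4% and 58.3%. None of these 4 shares overlapped between the genotypes, and the shares of one sum are not independent of each other.

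**Figure D4:**
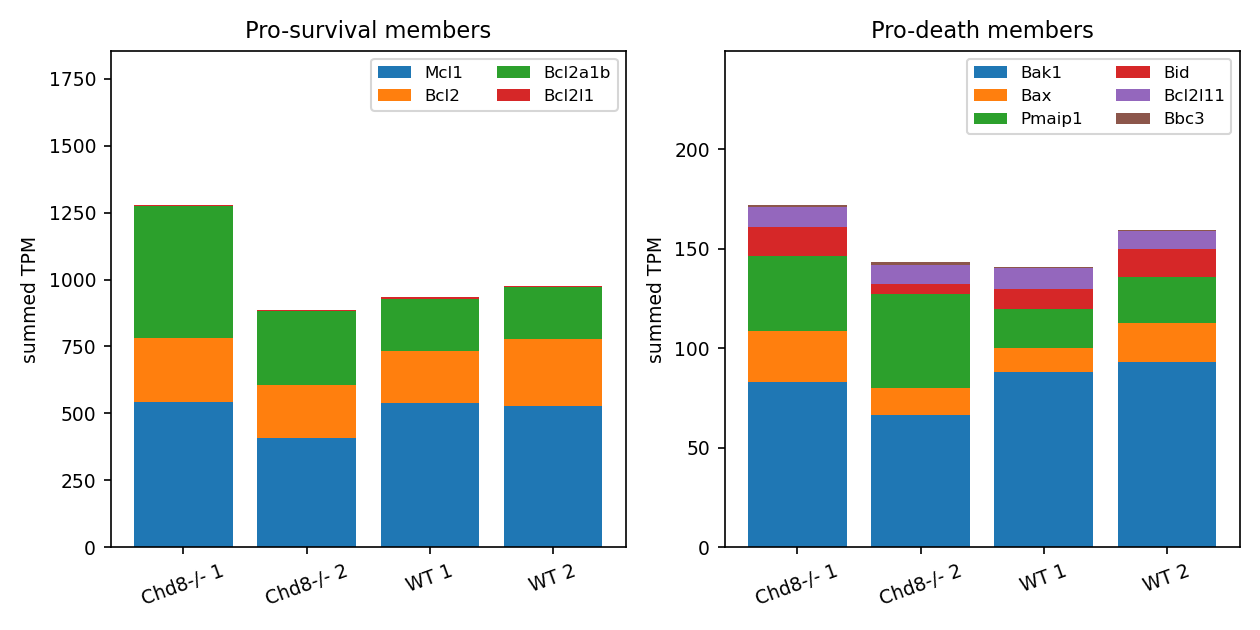
Summed TPM of the pro-survival members (left) and of the pro-death members (right) in each library, stacked by gene, with both axes starting at 0. Bcl2a1b was 38.8% and 31.3% of the left bars in Chd8-/- cells against 21.0% and 20.1% in WT, and Pmaip1 was 21.9% and 32.8% of the right bars against 14.0% and 14.6%.

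In the rest of the family, no gene passed the adjusted test. Of the 5 other pro-survival genes, 3 were tested, and the 2 without overlap were the A1 copies described above, both higher in Chd8-/- cells. The third, Bcl2l2 (BCL-W), was at 5.1 and 8.8 TPM against 5.1 and 5.3 TPM. Of 11 other pro-death and atypical genes, 7 were tested, with 2 higher and 1 lower without overlap, where 14.8% and 27.8% of all genes were so. Their median log2 fold change was -0.07, and 0.15 after quantile normalization.

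Bcl2l15, a little studied member with BH3-like sequence, was at 4.5 and 6.4 TPM in Chd8-/- cells and at 1.4 and 1.7 TPM in WT cells (log2 fold change 1.33, SE 0.41, limma adjusted p = 0.456). Bad, a BH3-only gene regulated by survival kinases, was at 17.3 and 12.7 TPM against 5.9 and 8.1 TPM (log2 fold change 1.00, SE 0.36, limma adjusted p = 0.485). Both were higher in each Chd8-/- library. Bmf, another BH3-only gene, was at 0.7 and 0 TPM against 2.0 and 1.6 TPM (log2 fold change -1.10, SE 0.50, limma adjusted p = 0.551), and passed the filter only through WT. The most abundant, Bnip3l, a mitophagy receptor, was at 78.7 and 62.3 TPM against 75.7 and 76.3 TPM, and Bcl2l12 was at 18.2 and 12.8 TPM against 17.8 and 13.6 TPM. Both overlapped.

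Downstream of the mitochondria, all 18 genes of the apoptosome, caspases and their inhibitors were tested. Of these, 14 were higher and 4 lower on average in Chd8-/- cells, 7 were higher and 2 lower without overlap, and the median log2 fold change was 0.25, beside -0.15 over all genes. Over all genes tested, 5873 of 15240 were higher on average, and 14.8% were higher and 27.8% lower without overlap. The list median was 0.37 after quantile normalization and 0.18 to 0.35 with a library left out. None passed the adjusted test. Among the abundant genes of the list, Cycs (cytochrome c) was at 64.0 and 65.0 TPM against 45.1 and 53.6 TPM, and Birc2, an inhibitor of apoptosis, at 68.5 and 44.7 TPM against 42.2 and 37.1 TPM, neither with overlap. Diablo, which neutralises such inhibitors, was at 76.0 and 41.6 TPM against 92.4 and 62.2 TPM and overlapped. The list holds both executioners and their inhibitors, so its median has no single direction of function.

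In the death receptor pathway, 7 of 11 genes were higher and 4 lower, 2 were higher and 1 lower without overlap (14.8% and 27.8% of all genes), and the median log2 fold change was 0.01. That median was 0.20 after quantile normalization and -0.07 to 0.16 with a library left out. Tnfrsf1a, the main TNF receptor, was at 7.8 and 13.9 TPM in Chd8-/- cells and at 34.8 and 20.2 TPM in WT cells (log2 fold change -1.27, SE 0.45, limma adjusted p = 0.481), lower in each Chd8-/- library. Casp8, the initiator caspase of this route, was at 140.5 and 139.5 TPM against 137.6 and 151.3 TPM, and Fadd, its adaptor, at 29.8 and 56.1 TPM against 41.6 and 64.9 TPM, both with overlap. Fas was at 59.9 and 59.6 TPM against 44.5 and 54.5 TPM, higher in each Chd8-/- library.

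Of 10 upstream regulators of the family, 9 were tested, with 2 higher and 3 lower without overlap (14.8% and 27.8% of all genes) and a median log2 fold change of -0.15, the same as over all genes. Foxo1, a transcription factor of resting T cells that can activate Bcl2l11, was at 210.8 and 189.3 TPM in Chd8-/- cells and at 357.8 and 368.8 TPM in WT cells (log2 fold change -0.86, SE 0.16, limma adjusted p = 0.402). It was lower in both Chd8-/- libraries, beside a Bcl2l11 level that overlapped. Trp53, which encodes p53, an activator of Bbc3, Pmaip1 and Bax, was at 89.1 and 60.6 TPM against 88.6 and 75.5 TPM, and Atf4, a stress factor that can activate Pmaip1, at 89.5 and 71.8 TPM against 86.5 and 93.6 TPM. The transcripts of both overlapped between genotypes.

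Of 9 genes of mitochondrial partners and MCL1 turnover, 7 were listed and tested, with 1 higher and 3 lower without overlap (14.8% and 27.8% of all genes) and a median log2 fold change of -0.37. That median was -0.20 after quantile normalization. With a library left out it ran from -0.47 (without Chd8-/- replicate 1) to -0.12 (without Chd8-/- replicate 2). Vdac2, an outer membrane channel that binds BAK, was at 262.7 and 216.1 TPM in Chd8-/- cells and at 196.9 and 192.8 TPM in WT cells, higher in each Chd8-/- library. Vdac1 was at 62.6 and 53.6 TPM against 75.1 and 57.4 TPM, and Usp9x, a deubiquitinase of MCL1, at 18.7 and 15.3 TPM against 15.7 and 17.2 TPM, both with overlap.

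**Figure D5:**
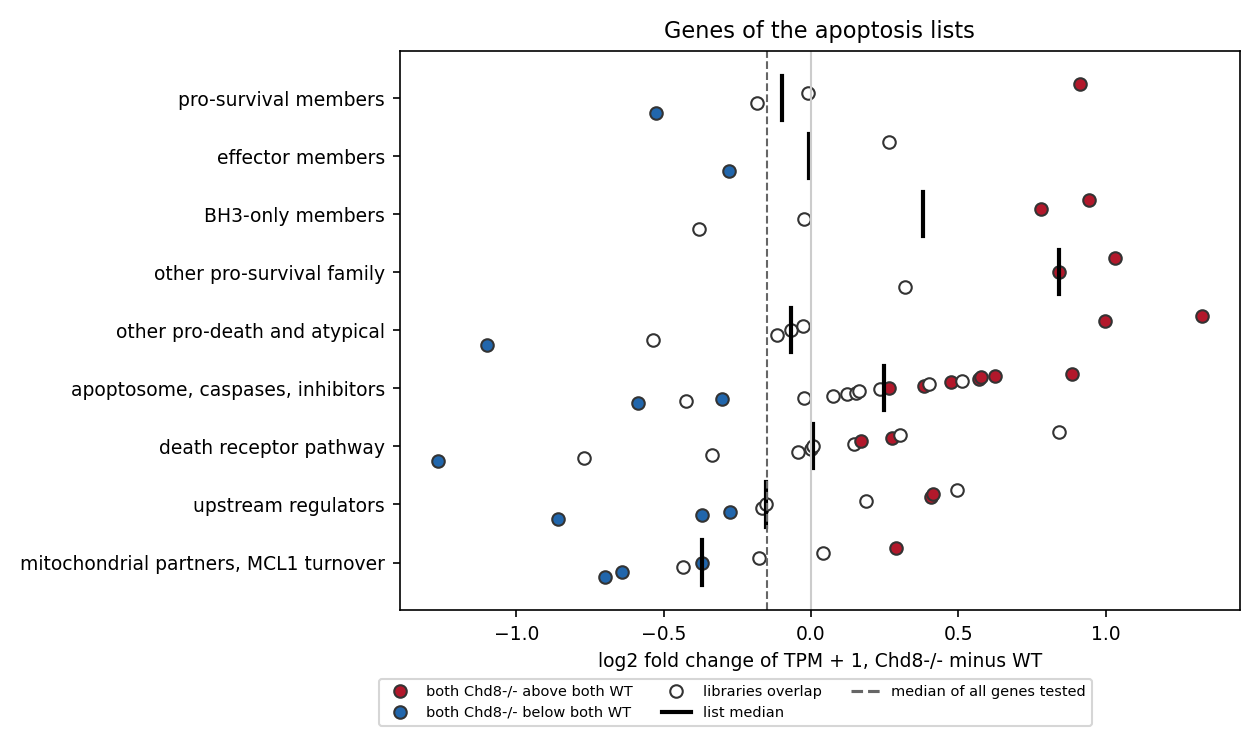
Log2 fold change of TPM + 1 (Chd8-/- minus WT) of every tested gene in the member groups and the other apoptosis lists, coloured by whether the libraries of the genotypes overlap, with the list medians as black bars and the median of all genes as a dashed line. The median of the apoptosome, caspase and inhibitor list is 0.25 and that of mitochondrial partners and MCL1 turnover -0.37, beside -0.15 over all genes; after quantile normalization these are 0.37, -0.20 and 0.00.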

How the data were processed

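Gene levels were deposited as TPM, rounded to 0.1, which the authors made from bulk RNA reads. Per the submitters' processing notes and the study's methods, reads were checked with FastQC 0.11.7, trimmed with Trim Galore 0.4.2 and cutadapt 1.9.1, aligned to mm10 with STAR 2.6.1e, stripped of duplicates and counted over RefSeq genes with featureCounts 1.6.2. Strand use was not given in the sources used here. The protocol names both a 10X Genomics 3′ assay and a bulk RNA kit. If reads came from 3′ ends only, length scaling would distort levels between genes but not between libraries. Removing duplicates can lower the levels of abundant, short genes. No counts came with the table, so the depth is unknown. Each library had 19540 to 20984 genes above 0 TPM.

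TPM was analysed as log2(TPM + 1) with limma 3.58.1 in R 4.3.3 (linear model, empirical Bayes with trend), over 15240 genes with TPM of at least 1 in at least 2 libraries, and p-values were adjusted by Benjamini-Hochberg over all of them. The procedure was tested on simulated data. Libraries were grouped by title, and 4 rows under repeated, date-like names were left out. The members and the gene lists were chosen with earlier results of these data known. From the other lists, genes were named where the log2 fold change was 1 or more in size without overlap, plus at most 3 per list by highest mean TPM. Sequences, positions and promoters came from RefSeq, build GRCm38.p6, with samtools 1.23.1. Figures used matplotlib 3.10.9. Alternatives were other pseudocounts (0.1 and 5 TPM), quantile normalization, no filter, a filter at a mean of 5 TPM, no trend, leaving out each library, and the replicate number as a block. ATAC and CHIP peaks, given in mm39 without gene names, were not analysed here. Some genes of these lists are not reported here by name.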

Additional observations from a re-analysis of the deposited data

How the results depend on the processing

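With all 4 libraries kept, no alternative brought a member to an adjusted p of 0.05 by limma. Of the 108 alternative values of member log2 fold changes, 99 kept their direction. The changes of filter, the replicate block and the fit without trend cannot alter a log2 fold change in this balanced design. Their part of the 99 was therefore fixed in advance. Bcl2l1, Bcl2a1b, Bak1, Bbc3 and Pmaip1 kept their direction in every alternative run. Their ranges were -0.69 to -0.24, 0.49 to 1.33, -0.43 to -0.12, 0.24 to 1.68 and 0.78 to 1.10, in that order. With all 4 libraries, the limma adjusted p ranges were 0.615 to 0.880, 0.454 to 0.836, 0.669 to 0.836, 0.516 to 0.836 and 0.390 to 0.554. These are the 5 members whose genotypes did not overlap. Leaving out 1 library could not reverse their sign, so the kept direction there only restates the lack of overlap. With a library left out, the other 5 spanned 0: Bcl2 from -0.19 to 0.17, above 0 without Chd8-/- replicate 2 (0.12) or WT replicate 2, Mcl1 from -0.39 to 0.024, above 0 without Chd8-/- replicate 2, Bax from -0.18 to 0.71, below 0 without Chd8-/- replicate 1 or WT replicate 1 (-0.08), Bcl2l11 from -0.14 to 0.10, above 0 without WT replicate 1 or Chd8-/- replicate 2 (0.04), and Bid from -1.03 to 0.26, above 0 without Chd8-/- replicate 2. Bcl2l11 was also reversed (0.20) by quantile normalization, which moved the median of all genes from -0.15 to 0.00. The cause was not tested.

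Over all genes, calls at an adjusted p of 0.05 numbered 0, 415 without a filter and 2 (Cdkn1a and Mir7649, named after their values were seen) at a mean TPM of at least 5. Of the 415, 8 pass the filter and the rest had a mean of at most 0.45 TPM. Members past a log2 fold change of 1 numbered 0, 1 (Bbc3) with a pseudocount of 0.1 TPM, 2 (Bbc3 and Pmaip1) after quantile normalization and 0 to 2 with a library left out. Members without overlap numbered 5, against 42.6% of all genes. At a mean TPM of at least 5 they numbered 3, against 43.5%, and Bcl2l1 and Bbc3 were not tested. After quantile normalization they numbered 6, against 42.2%. With a library left out they numbered 7 to 8, where 64.6% to 80.7% of all genes did not overlap either. Bbc3, counted among the 5 and past a log2 fold change of 1, passed the filter only through the Chd8-/- libraries. For the other member counts, all-gene shares under the alternatives are not given here. Members at an unadjusted p under 0.05 numbered 2, 1 without a filter, 1 without trend and 0 to 2 with a library left out, 0 without WT replicate 1 or 2 and 1 without Chd8-/- replicate 2. A lone library was then assumed to vary like the other group. The log2 balance of pro-death to pro-survival TPM was -0.09, 0.21 without Bcl2a1b, and 0.17 from means of log2(TPM + 1), a reading that leans on Bbc3. With a library left out it was between -0.22 and 0.046, above 0 only without Chd8-/- replicate 1.

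With the replicate number as a replicate block, the log2 fold changes of Bcl2a1b and Pmaip1 were 0.91 and 0.94, which the block cannot alter. As without it, 2 members were at an unadjusted p under 0.05 by limma. The numbers were not shown to pair the mice, as the deviations of same-numbered libraries correlated at -0.01 over genes. Depth is unknown, so the counting error of single values, such as the 0.2 TPM of Bbc3, cannot be given. Alternatives planned for the ATAC and CHIP peaks were not run.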
